A study of Homo sapiens with 4 samples.

Results

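The genes described here are 10 regulators of the passage from G1 into S phase: the D cyclins CCND1 and CCND3, the E cyclins CCNE1 and CCNE2, the kinases CDK2, CDK4 and CDK6, the kinase inhibitors CDKN1A and CDKN1B, and the pocket protein gene RB1. They were chosen by name, and their Ensembl gene IDs were all found among the 60614 gene IDs of the count tables. RNA-seq was performed on DU145, an established human prostate cancer cell line, with 2 libraries (replicates 1 and 2) of cells carrying SPOP-F133V and 2 of wild-type cells, all grown in the same serum-containing medium with no other treatment named. SPOP is the adaptor that brings substrates to a CUL3 ubiquitin ligase, and F133V changes a residue of its substrate-binding domain. Nothing in the labels tells whether the F133V cells are a clone, a pool or cells given extra SPOP, or whether the replicates were separate cultures, so p-values cover only the spread between these libraries, which may be technical.

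In textbook accounts, D cyclins bind CDK4 or CDK6 after mitogen signals, and E cyclins bind CDK2 somewhat later. Both kinase complexes phosphorylate the RB1 protein, which then releases E2F transcription factors, and E2F factors switch on genes for DNA synthesis as well as CCNE1 and CCNE2. CDKN1A and CDKN1B, of the CIP/KIP family, bind cyclin-CDK complexes, and CDKN1A is a classic target of p53. DU145 cells are known for mutant p53 and for an inactivating mutation of RB1, so RB1 mRNA in them does not stand for working protein. Cyclin E1 protein has been reported as a substrate of SPOP in prostate cancer cells. Read counts measure mRNA and not protein.

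Promoter sequence is shown for CDKN1A and CCND3, the 2 genes of the 10 that were higher in F133V cells with and without adjustment for GC content, and for CCNE1, an E2F-regulated cyclin that passed neither test. The sequences are those of RefSeq on GRCh38.p14, each running 5′ to 3′ on the gene's strand from 250 bases before to 50 bases after an annotated start. Capitals mark GC boxes, the letters GGGCGG or their complement CCGCCC, which Sp1-type factors can bind.
CDKN1A, chr6:36678464-36678763, plus strand: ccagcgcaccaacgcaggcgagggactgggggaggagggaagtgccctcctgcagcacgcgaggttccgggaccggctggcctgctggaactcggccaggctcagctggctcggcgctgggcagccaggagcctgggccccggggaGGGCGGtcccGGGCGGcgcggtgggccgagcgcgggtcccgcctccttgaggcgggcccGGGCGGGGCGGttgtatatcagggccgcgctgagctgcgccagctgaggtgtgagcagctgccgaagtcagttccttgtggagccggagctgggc
CCND3, chr6:41941759-41942058, minus strand: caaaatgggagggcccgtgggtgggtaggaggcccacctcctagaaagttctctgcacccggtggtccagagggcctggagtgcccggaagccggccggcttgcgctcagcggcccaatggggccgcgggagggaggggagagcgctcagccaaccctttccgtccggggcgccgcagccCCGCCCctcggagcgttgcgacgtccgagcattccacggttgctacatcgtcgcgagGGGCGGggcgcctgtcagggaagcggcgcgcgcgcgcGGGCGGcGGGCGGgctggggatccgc
CCNE1, chr19:29811741-29812040, plus strand: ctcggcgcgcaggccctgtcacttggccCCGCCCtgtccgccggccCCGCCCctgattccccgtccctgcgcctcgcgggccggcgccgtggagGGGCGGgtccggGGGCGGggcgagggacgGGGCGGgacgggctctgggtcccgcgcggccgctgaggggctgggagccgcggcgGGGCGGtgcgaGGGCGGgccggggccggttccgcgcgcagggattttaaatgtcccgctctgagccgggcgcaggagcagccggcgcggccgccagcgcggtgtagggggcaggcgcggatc
The CDKN1A window held 4 GC boxes, a pair of them sharing 1 base, the CCND3 window 4 and the CCNE1 window 7. At least 1 GC box stood in 15786 of the 35116 RefSeq windows of this length, so the letters are common. For the 10 genes, 10 windows of 7 genes were searched (CCND3 has 3 windows and CDK6 has 2). CCND1, CCNE2 and CDK2 had no window among those searched, so their promoters were not examined. E2F-type letters (TTTCCCGC, TTTGGCGC or TTTCGCGC on either strand) were found in 0 of the 10 windows, against 2.74% of all windows. The AP-1-type letters TGACTCA and TGAGTCA also had 0 matches in the 10 windows, against 4.95% of all windows. The CRE letters TGACGTCA had 0, against 1.85%. The windows stand at RefSeq starts, which need not be the 5′ end of the gene as annotated in GENCODE: the RB1 window counted here starts 173 kb inside the gene and so does not cover its upstream promoter, and the CCND3 window shown starts 109 kb inside. These are matches of letters in a window and say nothing of binding.

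All 10 genes had enough reads to be tested, with 299 to 13630 reads per gene and library out of 35173245 to 39642063 reads in genes. Genes were tested in edgeR by quasi-likelihood, p-values were adjusted across the 17539 genes tested by the Benjamini-Hochberg (BH) method, and an adjusted p under 0.05 counted as a call. Of the 10 genes, 3 were higher in F133V cells (CCND3, CDK4, CDKN1A), 4 were lower (CCND1, CCNE2, CDK6, RB1) and 3 were not called (CCNE1, CDK2, CDKN1B). Among all tested genes 54.8% were called, 27.2% as higher and 27.6% as lower, so a count of 7 called among 10 is not far from that of genes at large. The median log2 fold change was -0.01 over the 10 genes and 0.022 over all genes.

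**Figure D1:**
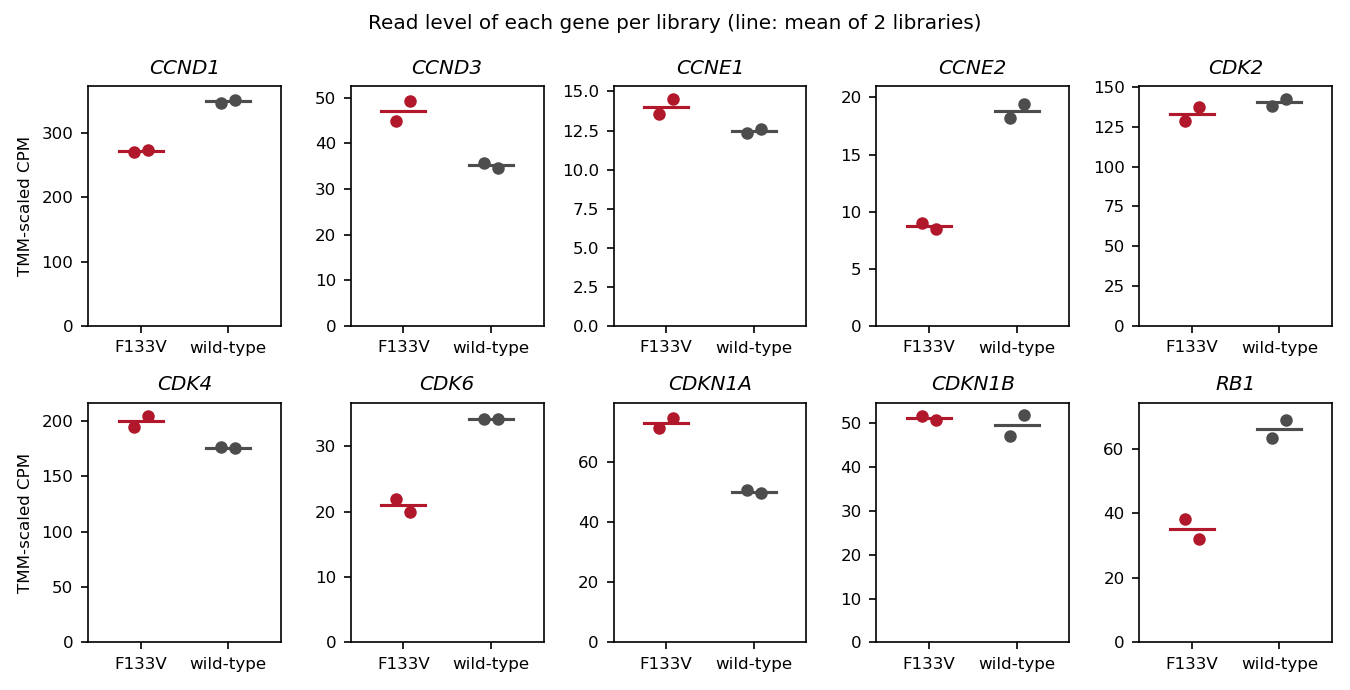
Level of each of the 10 genes in each library, as TMM-scaled CPM (reads of a gene relative to the library's scaled total), with F133V libraries left of wild-type libraries and lines at group means. CCNE2 and RB1 stand well apart between genotypes, whereas for CDKN1B the wild-type libraries lie on either side of the F133V libraries.

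Levels are given below as TMM-scaled CPM and compared between genotypes with and without an adjustment for GC content and transcript length. The adjustment matters because, over 11766 expressed genes, the median log2 fold change was -0.68 in the lowest of 10 bins of transcript GC content and 0.29 in the highest. A like slope separated the F133V replicates from each other: replicate 2 minus replicate 1 had a median of -0.19 in the lowest bin and 0.16 in the highest, where the wild-type replicates gave 0.02 and 0.01. In the adjusted fit 52.1% of 17299 genes were called, 27.6% as higher and 24.5% as lower, and among the 10 genes 2 were higher, 4 lower and 4 not called. The adjustment takes out any true difference that runs with GC content along with a technical one, and which of these the slope is was not tested. SPOP itself was at 1171 and 1151 CPM in the F133V libraries, against 844 and 906 CPM in the wild-type libraries (log2 fold change 0.41, edgeR BH-adjusted p = 2.7e-06), and gene counts cannot show which allele the reads came from. Prostate epithelial markers summed to 2242 and 2440 CPM in F133V libraries, against 1834 and 1833 CPM in wild-type libraries. KRT8, KRT18, KRT19, EPCAM and CDH1, 5 of 6 in that list, were all called higher, and KRT5 was at 0. GC adjustment left all 5 called. It took the log2 fold change from 0.34 to 0.12 for KRT8, 0.31 to 0.08 for KRT18 and 0.41 to 0.09 for KRT19. EPCAM was at 0.30 before and 0.29 after it, and CDH1 at 0.45 in both fits. KLK2 and KLK3 were at 0 in every library. Summed hematopoietic markers, 5 genes, ranged from 2.67 to 3.32 CPM in F133V libraries and from 1.63 to 2.10 CPM in wild-type libraries, with CD3E at 0 throughout, PTPRC at or near 0, and CD14 and ITGAM called higher. Summed fibroblast and endothelial markers, 7 genes, ranged from 7.82 to 8.39 CPM in F133V libraries and from 6.29 to 6.47 CPM in wild-type libraries, nearly all of it COL1A1, with DCN and LUM at 0 and COL1A1 and VWF called higher. With GC adjustment COL1A1 (0.09, edgeR BH-adjusted p = 0.458) and CD14 (0.31, 0.182) were no longer called. ITGAM and VWF stayed called, but on few reads. ITGAM had 22 and 28 reads in F133V libraries and 12 and 9 in wild-type libraries, and VWF had 11 and 14 against 4 and 2. The part of these markers in the results was not tested, and in RNA of a whole culture fewer cells of a kind and less RNA per cell cannot be told apart.

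The D cyclins moved in opposite directions. CCND1 (ENSG00000110092.4, chromosome 11, 69641087 to 69654474 on the plus strand of GRCh38), cyclin D1, was at 270.2 and 274 CPM in F133V replicates 1 and 2, against 347 and 351 CPM in wild-type replicates 1 and 2. Both F133V libraries lay below both wild-type libraries. CCND1 averaged 272 ± 2.88 CPM over the F133V libraries and 349 ± 3.02 CPM over the wild-type ones (SD, n = 2 each), and it fell with a log2 fold change of -0.36 ± 0.056 (SE; edgeR BH-adjusted p = 1.55e-05). The GC adjustment left CCND1 lower, at -0.42 (edgeR BH-adjusted p = 5.8e-14), and CCND1 lies in a bin of GC content whose median log2 fold change was 0.06. CCND3 (ENSG00000112576.13, chromosome 6, 41934933 to 42050357, minus strand), cyclin D3, was at 44.9 and 49.3 CPM in F133V replicates 1 and 2, against 35.7 and 34.6 CPM in wild-type replicates 1 and 2. Its F133V libraries were both the higher ones, by more than either pair of replicates differed. CCND3 rose with a log2 fold change of 0.42 ± 0.074 (SE; edgeR BH-adjusted p = 7.15e-05), and by 0.19 after GC adjustment (edgeR BH-adjusted p = 0.00128). The third D cyclin, CCND2, had under 0.12 CPM in every library and was not tested.

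Because CCND1 fell and CCND3 rose, the balance of D cyclin mRNA shifted within each library, a measure that needs no scaling between libraries. Per kilobase of longest transcript, CCND3 made up 23.7% ± 1.01 of the mRNA of both D cyclins in the F133V libraries, against 15.3% ± 0.409 in the wild-type libraries (SD, n = 2 each). CCND1 exceeded CCND3 by a ratio of 3.35 and 3.09 in F133V libraries and of 5.40 and 5.65 in wild-type libraries. Cyclin D1 thus remained the more abundant D cyclin mRNA in all 4 libraries. The size of these shares and ratios rests on the length chosen. Per kilobase of all annotated exons, CCND3 was at 7.74 and 8.50 CPM in F133V libraries, beside 55.95 and 56.79 for CCND1. In wild-type libraries CCND3 was at 6.155 and 5.96 on that length, beside 71.88 and 72.76 for CCND1. An exact permutation test of 2 against 2 libraries cannot give a p under 0.333, so ratios within libraries are given as values with no test. The log2 fold changes of CCND1 and CCND3 differed by -0.78, and by -0.61 after GC adjustment.

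Their kinase partners are CDK4 and CDK6. CDK4 (ENSG00000135446.17, chromosome 12, 57747727 to 57756013, minus strand) was at 194 and 205 CPM in F133V libraries, against 176 and 175 CPM in wild-type libraries. Its rise was slight, with a log2 fold change of 0.18 ± 0.059 (SE; edgeR BH-adjusted p = 0.0125). After GC adjustment nothing of it was left, with -0.01 and a 95% interval of -0.07 to 0.06 (edgeR BH-adjusted p = 0.899). Leaving out wild-type replicate 1 (edgeR BH-adjusted p = 0.228) or 2 (0.268) also ended the call. CDK6 (ENSG00000105810.10, chromosome 7, 92604921 to 92836594, minus strand) was at 22.0 and 19.9 CPM in F133V libraries, against 34.2 and 34.2 CPM in wild-type libraries. The wild-type libraries nearly coincided and both F133V libraries lay well below them. CDK6 fell with a log2 fold change of -0.71 ± 0.079 (SE; edgeR BH-adjusted p = 2.56e-07), but its GC-adjusted value was -0.09 with a 95% interval of -0.20 to 0.02 (edgeR BH-adjusted p = 0.166). The bin of GC content that holds CDK6 had a median of -0.51, and 83.8% of the genes in it were called. CDK4 exceeded CDK6 per kilobase by a ratio of 49.5 and 57.4 in F133V libraries and of 28.8 and 28.7 in wild-type libraries. The difference between their log2 fold changes, 0.89, came to 0.09 after GC adjustment.

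**Figure D2:**
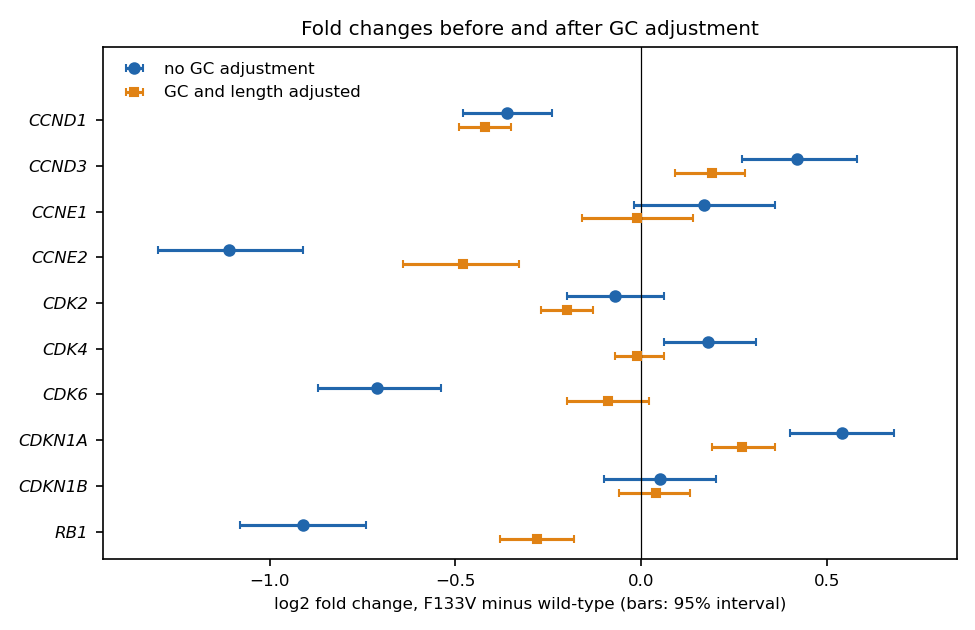
Log2 fold change of each gene, F133V minus wild-type, without GC adjustment (circles) and with it (squares), with bars for 95% intervals. CCND1, CCND3, CCNE2, CDKN1A and RB1 stay on their side of 0 in both fits, while CDK4 and CDK6 cross or reach 0 in the adjusted fit.

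Among the E cyclins, CCNE2 fell and CCNE1 was not called. CCNE2 (ENSG00000175305.18, chromosome 8, 94879770 to 94896678, minus strand), cyclin E2, was at 8.99 and 8.47 CPM in F133V libraries, against 18.2 and 19.4 CPM in wild-type libraries. The F133V libraries held 0.531 of the wild-type level at the upper bound of the 95% interval. CCNE2 had the largest fall of the 10 genes without GC adjustment, a log2 fold change of -1.11 ± 0.092 (SE; edgeR BH-adjusted p = 5.89e-09), and the largest also with it, at -0.48 (edgeR BH-adjusted p = 1.5e-06). CCNE1 (ENSG00000105173.14, chromosome 19, 29811898 to 29824308, plus strand), cyclin E1, was at 13.5 and 14.5 CPM in F133V libraries, against 12.4 and 12.6 CPM in wild-type libraries. The F133V values were slightly above the wild-type ones without passing the test, at 0.17 with a 95% interval of -0.02 to 0.36 (edgeR BH-adjusted p = 0.122). The GC-adjusted interval ran from -0.16 to 0.14 around -0.01 (edgeR BH-adjusted p = 0.949). With upper-quartile scaling, which shifts the median of all genes to 0.13, CCNE1 was called higher at 0.28 (edgeR BH-adjusted p = 0.0111).

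The E cyclins therefore changed in proportion as well. CCNE2 made up 28.9% and 26.4% of E cyclin mRNA per kilobase in F133V libraries, against 47.5% and 48.6% in wild-type libraries. By this measure the 2 genes stood nearly level in wild-type cells, with CCNE1 at 1.11 and 1.06 of the CCNE2 level. In F133V cells CCNE1 was at 2.45 and 2.79 of it. Their log2 fold changes differed by 1.27, and by 0.47 after GC adjustment. The exons of CCNE2 share 37.1% of their bases with exons of other genes, mainly INTS8 on the opposite strand. The sources used here do not say whether counting used strand. Of the 75-base windows of the longest CCNE2 transcript, 47.8% also occur in INTS8, whereas CCNE1 shares 0%. Without strand, reads over both genes would be left out while the full length was kept, which would lower CCNE2 per kilobase. Whether CCNE1 and CCNE2 were truly level in wild-type cells is thus not settled. INTS8 was at 91.2 and 80.9 CPM in F133V libraries, against 124 and 124 CPM in wild-type libraries, a log2 fold change of -0.52 (edgeR BH-adjusted p = 1.58e-06) that was 0.05 after GC adjustment (0.238). Its part in the CCNE2 counts was not tested.

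CDK2 (ENSG00000123374.11, chromosome 12, 55966769 to 55972784, plus strand), the kinase of the E cyclins, was at 129 and 137.7 CPM in F133V libraries, against 137.8 and 143 CPM in wild-type libraries. F133V replicate 2 all but met wild-type replicate 1, and CDK2 was not called at -0.07 with a 95% interval of -0.20 to 0.06 (edgeR BH-adjusted p = 0.328). After GC adjustment it was called lower at -0.20 (edgeR BH-adjusted p = 1.4e-05), and it was also called at -0.12 without F133V replicate 2 (edgeR BH-adjusted p = 0.00294). Groups that did not overlap were seen for 9 of the 10 genes, all but CDKN1B, and for 78.0% of all tested genes.

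The kinase inhibitors differed from each other. CDKN1A (ENSG00000124762.14, chromosome 6, 36676460 to 36687339, plus strand) was at 71.3 and 74.8 CPM in F133V libraries, against 50.5 and 49.7 CPM in wild-type libraries. Both genotypes were tight and well apart, averaging 73.0 ± 2.43 CPM over F133V libraries and 50.1 ± 0.561 CPM over wild-type ones (SD, n = 2 each). CDKN1A had the largest rise of the 10, with a log2 fold change of 0.54 ± 0.068 (SE; edgeR BH-adjusted p = 1.09e-06), or 0.27 after GC adjustment (edgeR BH-adjusted p = 9.09e-07). CDKN1B (ENSG00000111276.11, chromosome 12, 12715058 to 12722371, plus strand) was at 51.7 and 50.7 CPM in F133V libraries, against 47.1 and 51.9 CPM in wild-type libraries. Those ranges overlapped, and the 95% interval of its log2 fold change, -0.10 to 0.20 around 0.05, leaves room for a change of up to 1.15-fold (edgeR BH-adjusted p = 0.591). CDKN1B passed in 0 of the 14 alternative settings that were run, with log2 fold changes of -0.04 to 0.16. CCND1 mRNA, per kilobase, exceeded that of CDKN1A by a ratio of 1.99 and 1.93 in F133V libraries and of 3.62 and 3.72 in wild-type libraries.

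**Figure D3:**
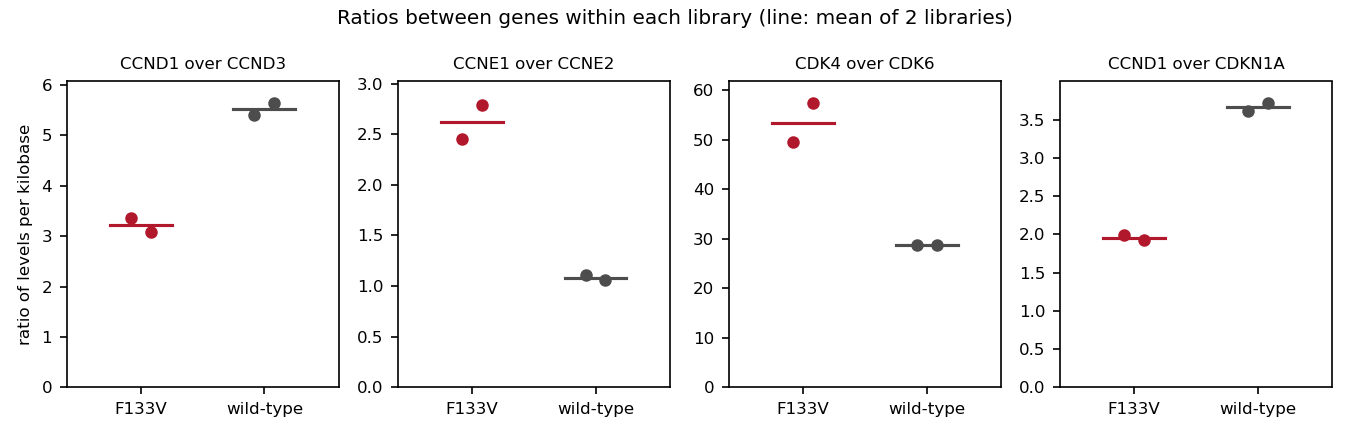
Ratio of 2 genes' levels per kilobase of longest transcript within each library, with F133V libraries left of wild-type libraries and lines at group means. The ratios of CCND1 to CCND3 and of CCND1 to CDKN1A are lower in both F133V libraries, and those of CCNE1 to CCNE2 and CDK4 to CDK6 are higher.

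RB1 (ENSG00000139687.16, chromosome 13, 48303726 to 48599436, plus strand) was at 38.1 and 32.0 CPM in F133V libraries, against 63.2 and 68.9 CPM in wild-type libraries. F133V cells thus held 0.531 of the wild-type level of RB1 mRNA (95% interval 0.472 to 0.598). RB1 fell with a log2 fold change of -0.91 ± 0.082 (SE; edgeR BH-adjusted p = 1.43e-08). Its transcript is low in GC content, at 37.3%, and the genes of that bin had a median of -0.68, 91.7% of them called. With GC adjustment RB1 was still lower, at -0.28 or a fold of 0.823 (edgeR BH-adjusted p = 4.95e-06). RB1 was also the gene of the 10 that differed most between the F133V replicates, replicate 2 minus replicate 1 being -0.25 on the log2 scale. Without F133V replicate 1 its unadjusted log2 fold change was -1.07, and without replicate 2 it was -0.79.

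**Figure D4:**
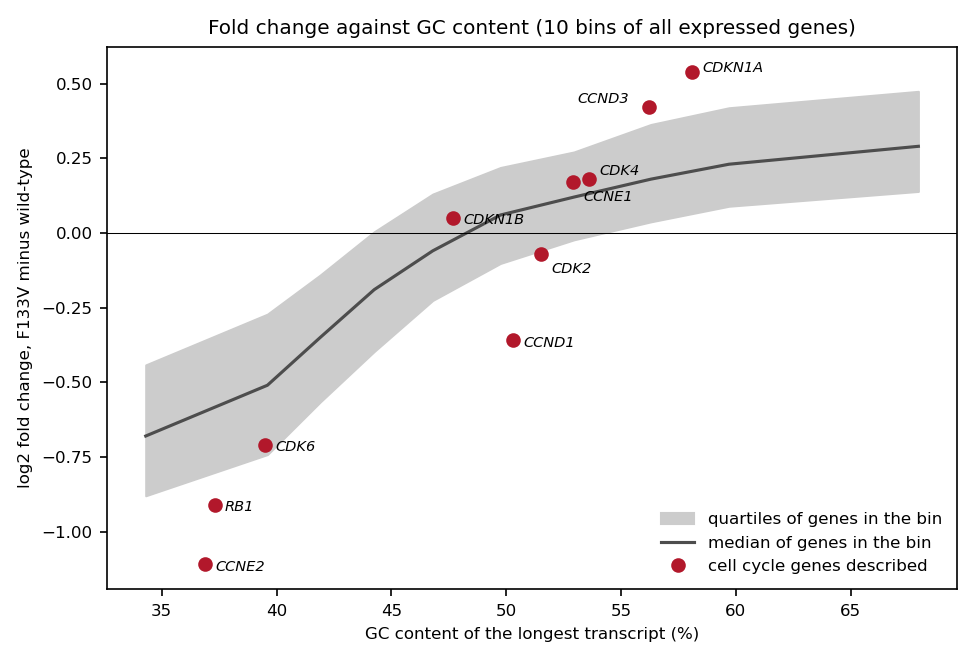
Log2 fold change, F133V minus wild-type, of each of the 10 genes (points) against the GC content of its longest transcript, with the median (line) and quartiles (band) of all expressed genes in 10 bins of GC content. CCND1, CCNE2 and CDKN1A lie outside the quartiles of their bins, RB1 and CDK2 just below them and CCND3 just above them. CDK6, CDK4, CCNE1 and CDKN1B lie within them.

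Across the 10 genes the order of the unadjusted fold changes was close to the order of GC content (Spearman rho 0.96 over 10 genes of the same 4 libraries, given as a description), compared with 0.73 over all expressed genes. The GC-adjusted fold changes of the 10 genes still had a rho of 0.78 with GC content. CCND1, with a mid GC content of 50.3%, was at -0.36 without GC adjustment, where CDK2, CCNE1 and CDK4 at 51.5% to 53.6% were at -0.07, 0.17 and 0.18. In the 14 alternative settings, CCND1, CCND3, CCNE2, CDKN1A and RB1 kept their direction and stayed past the threshold. Their log2 fold changes in those settings ranged from -0.46 to -0.25 for CCND1, 0.17 to 0.53 for CCND3, -1.18 to -0.44 for CCNE2, 0.22 to 0.65 for CDKN1A and -1.07 to -0.23 for RB1.

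**Figure D5:**
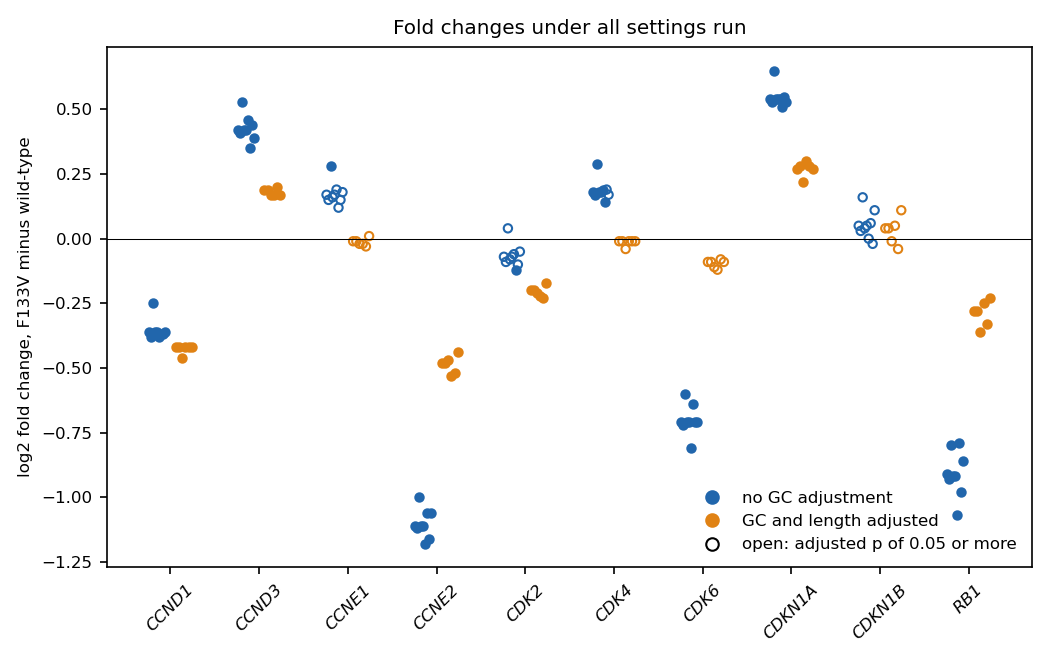
Log2 fold change of each gene, F133V minus wild-type, under every setting run, without GC adjustment (blue) and with it (orange), filled where the adjusted p was under 0.05. The 2 colours separate most for CCNE2, CDK6 and RB1, whose transcripts have a GC content of 36.9% to 39.5%, and least for CDKN1B and CCND1.

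Levels of different genes were compared only per kilobase of the longest annotated transcript. CDK4 was the most abundant, at 93.5 and 98.6 CPM per kilobase in F133V libraries and 84.9 and 84.3 in wild-type libraries, and CCND1 followed, at 62.7 and 63.7 in F133V libraries and 80.6 and 81.6 in wild-type libraries. CDK2 at 49.6 to 55.0 and CDKN1A at 21.9 to 33.0 CPM per kilobase came next on this length in all 4 libraries. CCND3 and CDKN1B overlapped in F133V libraries, at 18.8 and 20.6 for CCND3 and 19.5 and 19.1 CPM per kilobase for CDKN1B. RB1 at 7.95 and 6.67 and CCNE1 at 6.63 and 7.10 CPM per kilobase likewise overlapped in F133V libraries, whereas RB1 stood above CCNE1 in wild-type libraries, at 13.2 and 14.4 against 6.05 and 6.17. CCNE2 and CDK6 were lowest in every library, with CDK6 at 1.89 and 1.72 CPM per kilobase in F133V libraries and 2.95 and 2.94 in wild-type libraries. The order rests on the length chosen: per kilobase of all annotated exons, CCND1 stood above CDK4 in the wild-type libraries and below it in the F133V libraries. On that length CDKN1B also stood above CDKN1A, and RB1 above CCND3, in both wild-type libraries. Exons of CDK4 share 43.2% of their bases with TSPAN31 on the other strand, those of CDK2 16.8% with other genes and those of CCND1 10.3% with LTO1, which was at -0.15 and not called (GC-adjusted -0.22, called). TSPAN31 itself rose, at 8.15 and 7.85 CPM in F133V libraries and 3.59 and 3.22 CPM in wild-type libraries (log2 fold change 1.23, edgeR BH-adjusted p = 5.18e-08). Its part in the CDK4 counts was not tested. If counting did not use strand, reads over exons shared with another gene were left out while lengths were kept whole. That would lower the level per kilobase of genes with shared exons.

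The wider G1/S machinery was examined in a list of 25 further genes (other cyclins, CDK inhibitors, pocket proteins, E2F and DP factors and the CDK-activating kinase), 23 of them tested. Of these 5 rose, 10 fell and 8 were not called, with a median log2 fold change of -0.10. With GC adjustment 7 rose, 12 fell and 4 were not called, with a median of -0.09. The unadjusted share called was 65.2%, beside 54.8% of all tested genes, and 52.1% of all genes were called in the adjusted fit. Without wild-type replicate 2 the unadjusted counts were 2 higher and 6 lower. The third CIP/KIP inhibitor, CDKN1C, had the largest rise in the list. CDKN1C was at 7.30 and 6.97 CPM in F133V libraries, against 2.42 and 2.41 CPM in wild-type libraries, a log2 fold change of 1.56 ± 0.13 (SE; edgeR BH-adjusted p = 6.12e-09) that was 1.24 after GC adjustment. The INK4 inhibitor CDKN2D (0.51, edgeR BH-adjusted p = 2.12e-04) and the factor E2F1 (0.29, 0.0019) rose without GC adjustment and were not called with it, while CDKN2A was called higher at 0.22 without it and lower at -0.09 with it. Without GC adjustment, the CDKN2A call was lost when wild-type replicate 1 (edgeR BH-adjusted p = 0.118) or 2 (0.114) was left out, and the E2F1 call when wild-type replicate 2 was (0.098). RBL1, the pocket protein related to RB1, was at 17.5 and 16.2 CPM in F133V libraries, against 33.5 and 34.9 CPM in wild-type libraries. It fell with a log2 fold change of -1.02 (edgeR BH-adjusted p = 2.85e-09; GC-adjusted -0.51), whereas the third pocket protein gene, RBL2, fell by 0.29 and was at -0.01 and not called after GC adjustment. The S phase cyclin CCNA2 (-0.58, GC-adjusted -0.26), the activator E2F3 (-0.53, GC-adjusted -0.38) and the repressor E2F7 (-0.65, GC-adjusted -0.36) fell in both fits.

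E2F-regulated genes of DNA synthesis, a list of 24 that were all tested, were mostly lower: 2 rose, 16 fell and 6 were not called. Among all tested genes 27.2% were called higher and 27.6% lower. The median log2 fold change was -0.23 in the list and 0.022 over all genes. With GC adjustment 0 of the list rose, 21 fell and 3 were not called, beside 27.6% of all genes called higher and 24.5% lower. The adjusted median was -0.24 in the list and 0.018 over all genes. With upper-quartile scaling 4 rose and 10 fell, and without wild-type replicate 1 or 2 the falls numbered 8 and 7. The DNA polymerase alpha subunit POLA1 (-0.89, GC-adjusted -0.58) and the origin-loading factor CDC6 (-0.63, GC-adjusted -0.50) fell in both fits (edgeR BH-adjusted p = 2.74e-08 and 9.41e-08 without GC adjustment). CDC6 was at 57.1 and 57.2 CPM in F133V libraries, against 89.0 and 87.7 CPM in wild-type libraries. The licensing factor CDT1 rose (0.39) and was not called after GC adjustment (0.09, edgeR BH-adjusted p = 0.0863). Thymidine kinase, TK1, was called higher at 0.18 without GC adjustment and lower at -0.14 with it, and the first call was lost when F133V replicate 2 (edgeR BH-adjusted p = 0.0611), wild-type replicate 1 (0.266) or wild-type replicate 2 (0.214) was left out.

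Genes that control the turnover of cyclins and inhibitors numbered 18, of which 17 were tested: 4 rose, 8 fell and 5 were not called. In the GC-adjusted fit 3 rose, 4 fell and 10 were not called. The unadjusted share called was 70.6%, beside 54.8% of all tested genes, and 52.1% of all genes were called in the adjusted fit. With wild-type replicate 1 or 2 left out, the unadjusted rises numbered 1 and 0. AMBRA1, the CUL4 ligase adaptor that directs D cyclins to the proteasome, rose by a log2 fold change of 0.36 ± 0.076 (SE; edgeR BH-adjusted p = 4.8e-04), and by 0.19 with GC adjustment. With wild-type replicate 2 left out, the edgeR BH-adjusted p without GC adjustment was 0.0603. CUL1, the scaffold of the SCF ligases, fell (-0.40, GC-adjusted -0.24). SKP2, the F-box protein that targets CDKN1B, fell at -0.46 and was at -0.06 and not called after GC adjustment, as were CUL4B (-0.61, GC-adjusted 0.01) and DTL (-0.42, GC-adjusted -0.07), which is also one of the E2F-regulated genes. The rises of RNF123 (0.30), FBXO31 (0.21) and DDB1 (0.14) were also not called after GC adjustment, or without it when wild-type replicate 1 (edgeR BH-adjusted p = 0.108, 0.233 and 0.418) or 2 (0.0759, 0.319 and 0.303) was left out.

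Other p53 target genes were split in direction. Of 18 such genes, all tested, 6 rose, 6 fell and 6 were not called, with a median of -0.10, and 5 rose and 8 fell with GC adjustment. The unadjusted share called was 66.7%, beside 54.8% of all tested genes. In the adjusted fit 27.6% of all genes were called higher and 24.5% lower. The pro-apoptotic gene BBC3 rose at 1.20 (GC-adjusted 0.73), and the repair gene DDB2 (0.54, GC-adjusted 0.42), the reductase gene FDXR (0.61, GC-adjusted 0.32) and PHLDA3 (0.48, GC-adjusted 0.21) also rose. The exonuclease gene AEN fell at -0.90 (GC-adjusted -0.96), as did the ribonucleotide reductase subunit RRM2B (-0.92, GC-adjusted -0.25), the death receptor FAS (-0.82, GC-adjusted -0.32) and MDM2, the ligase that targets p53 (-0.62, GC-adjusted -0.16). Without GC adjustment, edgeR gave these 8 genes BH-adjusted p-values between 9.96e-09 and 2.89e-05.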

How the data were processed

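Total RNA of DU145 cells was sequenced as single reads, per the labels' protocols, in 2 SPOP-F133V and 2 wild-type libraries, grouped by the genotype label. Raw counts of reads for each gene ID were deposited by the authors, made with TopHat2 version 2.0.10 and HTSeq version 0.6.0 on genome build hg38, per the submitters' processing notes. The sources used here do not state the annotation release, poly-A selection or strand setting. Reads over no gene (6.12% to 6.53%), over several genes (3.50% to 3.73%) or aligned more than once (13.6% to 16.6%) stayed out of library sizes and tests. Replicates differed by more than sampling noise (chi-square over degrees of freedom 7.68 for F133V and 1.64 for wild-type).

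Tests on these counts ran in edgeR 4.0.16 under R 4.3.3: filterByExpr defaults, TMM, quasi-likelihood test, two-sided, BH adjustment over all tested genes, threshold 0.05. Each SE is the fold change over the square root of F, and 95% intervals use the total degrees of freedom, of which 2 are residual. A positive log2 fold change means higher in F133V. The GC adjustment used mgcv 1.9.3: each library's log2 CPM (prior count 2) minus the gene mean was smoothed on GC content and log2 length of the longest GENCODE release 29 transcript (basis dimension 8, genes with mean log2 CPM above 2) and entered as an offset, centred on the median. Symbols were found for 60400 gene IDs. Coordinates are of GENCODE release 29 on GRCh38. The fits were run on simulated counts with the same spread in every library and no GC slope. That run therefore does not test the GC adjustment or the unequal spread of these replicates. Alternatives were DESeq2 1.42.0, upper-quartile scaling, no low-count filter, a replicate block, and each library left out, the last 2 also with the GC adjustment. Gene lists, members and tests were chosen with earlier results of these data known. In each list besides the 10 genes and the marker lists, up to 4 called genes of lowest adjusted p in each direction are named; INTS8, TSPAN31, LTO1, RBL2, CCND2 and the marker genes were named after their values were seen. Protein sequences were not used here, and some genes of the lists are not reported here.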

Additional observations from a re-analysis of the deposited data

How the results depend on the processing

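With 2 libraries a genotype, calls of small differences such as those of CCNE1, CDK2 and CDK4 hung on the setting. The call of CDK6 hung on the GC adjustment. In the fits of all libraries CDK6 was called without that adjustment and not called with it. Over all settings its log2 fold change ranged from -0.81 to -0.60 without GC adjustment and from -0.12 to -0.08 with it. What underlies this dependence was not tested. CDKN1B ranged from -0.04 to 0.16 and was called in no setting. CCND1, CCND3, CCNE2, CDKN1A and RB1 stayed past the threshold in the same direction in 14 of 14 alternatives. Upper-quartile scaling moved the median of all genes to 0.13 and gave 0.28 for CCNE1, now called, and 0.04 for CDK2, as well as medians of 0.01 for the other G1/S genes, -0.02 for the turnover genes, -0.12 for the E2F-regulated genes, with 4 of these higher and 10 lower, and 0.01 for the p53 targets. DESeq2 called 7277 genes in either direction. It called 2 turnover genes and 1 E2F-regulated gene higher, with a median of -0.11 for the other G1/S genes, and the fit with no filter on low counts called 2 turnover genes higher, with a median of -0.08. GC adjustment gave -0.01 for CCNE1, -0.20 for CDK2, now called, -0.01 for CDK4 and -0.09 for CDK6, the last 2 no longer called. It also gave -0.09 for CDKN2A, 0.01 for CUL4B and -0.14 for TK1, 4 turnover genes lower with a median of 0.01, and 0 E2F-regulated genes higher.

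The labels give the genotypes the same replicate numbers and do not say that a number marks a shared culture or day, and same-numbered libraries did not deviate together (correlation -0.053 over 11790 genes). A fit with the replicate number as a block called 9365 genes, against 9604 without it. The block with GC adjustment called 9084 genes and gave -0.01 for CCNE1, -0.20 for CDK2, -0.01 for CDK4, -0.09 for CDK6, -0.09 for CDKN2A, -0.00 for E2F1, 0.00 for CUL4B and -0.14 for TK1. Under the same block 4 turnover genes were lower, with a median of 0.01, and 0 E2F-regulated genes were higher.

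With each library left out in turn, the number of genes called higher ranged over 2786 to 5225, beside 4763 with all libraries, and was 2819 without wild-type replicate 1 and 2786 without wild-type replicate 2. The log2 fold changes ranged over -0.12 to -0.05 for CDK2, 0.14 to 0.19 for CDK4 and -0.02 to 0.11 for CDKN1B. Other G1/S genes called higher numbered 2 to 7 and lower 6 to 12, with medians of -0.17 to -0.09. Turnover genes called higher numbered 0 to 4, with medians of -0.17 to -0.10, and E2F-regulated genes called higher 1 to 4 and lower 7 to 19. The median of the p53 targets was -0.12 to -0.08. With GC adjustment as well, the values without F133V replicate 1, F133V replicate 2, wild-type replicate 1 and wild-type replicate 2, in that order, were -0.02, -0.02, -0.03 and 0.01 for CCNE1, -0.21, -0.22, -0.23 and -0.17 for CDK2, -0.04, -0.01, -0.01 and -0.01 for CDK4, -0.11, -0.12, -0.08 and -0.09 for CDK6 and -0.01, 0.05, -0.04 and 0.11 for CDKN1B. In the same order they were -0.11, -0.11, -0.10 and -0.08 for CDKN2A, 0.00, -0.03, 0.02 and -0.02 for E2F1, -0.08, 0.06, 0.02 and -0.02 for FBXO31, -0.01, -0.01, -0.00 and 0.02 for DDB1, -0.08, 0.05, 0.01 and -0.00 for CUL4B and -0.15, -0.17, -0.16 and -0.12 for TK1. The medians in that order were -0.11, -0.08, -0.10 and -0.08 for the other G1/S genes, -0.02, 0.03, 0.01 and -0.00 for the turnover genes, -0.26, -0.28, -0.25 and -0.24 for the E2F-regulated genes and -0.14, -0.11, -0.09 and -0.10 for the p53 targets. Other G1/S genes called higher numbered 6, 8, 7 and 7, turnover genes 2, 4, 3 and 2 higher and 5, 5, 4 and 4 lower, and E2F-regulated genes 0, 0, 0 and 0 higher. Fits that leave a genotype with 1 library assume that it varies like the other genotype.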
